A study of Mus musculus with 2 samples.

Results

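Slits, netrins and ephrins are cues that were first studied for steering growing axons, and the 37 mouse genes described here are these cues and their receptors. They were found by gene symbol among 32285 features of a single-cell RNA count table, each symbol once. They comprise 3 Slits with 4 Robo receptors, 5 netrins and netrin-Gs with 6 netrin receptors, and 8 ephrins with 11 Eph receptors. Cells came from the injured tendon area of 12-week-old mice, 14 days after injury, in 1 library of TrkA F592A mice and 1 library of TrkA WT mice, with 3 mice pooled per genotype. TrkA is the receptor tyrosine kinase for nerve growth factor. The F592A allele carries a point mutation that opens the kinase to a bulky inhibitor, and INMPP1, an inhibitor of this kind, is the title given to the F592A sample. The question was how healing tendon differs between F592A and WT mice. The labels state neither a dose nor whether WT mice were also treated, so the allele, the inhibitor and blocked TrkA cannot be told apart. All mice carried the same injury, and a point mutation gives no transcript level by which to check the labels.

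Slits are secreted proteins that bind Robo receptors and usually repel axons, and the same pair acts on migrating cells and on vessels. Netrins are secreted relatives of laminin that attract through Dcc and neogenin (Neo1) and repel through Unc5 receptors, while netrin-Gs are tethered to the membrane by a lipid anchor. Ephrins stay on the cell surface and signal in both directions with Eph receptor kinases on a neighbouring cell. The A ephrins are lipid-anchored and the B ephrins span the membrane. Outside the nervous system ephrin-B2 and EphB4 are known as marks of arteries and veins.

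The F592A library gave 8449 cells and the WT library 11254 cells, at median depths of 17880 and 15873.5 unique molecular identifiers (UMIs, tags that mark captured RNA molecules). Clusters formed without the 37 genes were named by marker genes. Stromal cells made up 4569 F592A and 6451 WT cells, macrophages 1736 and 2608, blood endothelial cells 642 and 584, mural cells (the contractile cells around vessels) 620 and 610, and lymphatic endothelial cells 90 and 94. Neutrophils (155 and 240), dendritic cells (159 and 196), T or NK cells (146 and 97) and 332 and 374 cells of mixed markers completed the set. The labels call the cells tenocytes with the injured area. All 8 tenocyte markers were read in stromal cells, at a summed 6279 CPM in F592A and 5491 CPM in WT. Here CPM is a gene's count scaled to a common UMI total of its class, with no scaling by gene length, so levels are compared between cells and not between genes. Each genotype is 1 library, so the differences have no replicates behind them and were not tested. Intervals are at the 95% level and take in counting error alone, not the spread between mice. A gene counted as measured in a class with at least 100 UMIs over both libraries. It counted as apart with a ratio of at least 1.5-fold, and "higher" and "lower" without a value below refer to that limit.

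The upstream sequence of 3 genes is shown because they mark the main patterns, Epha4 for the difference between genotypes and Robo4 and Ephb4 for levels in vessel cells. Each run is the 250 bases before the RefSeq transcript start on GRCm38.p6, from 5′ to 3′ along the gene, at chr1:77515089-77515338 (minus strand) for Epha4, chr9:37401722-37401971 (plus strand) for Robo4 and chr5:137349859-137350108 (plus strand) for Ephb4. By the GENCODE gene coordinates Robo4 starts at 37401897, so part of its window lies within the annotated gene. Capitals mark the GC box GGGCGG on either strand.
Epha4: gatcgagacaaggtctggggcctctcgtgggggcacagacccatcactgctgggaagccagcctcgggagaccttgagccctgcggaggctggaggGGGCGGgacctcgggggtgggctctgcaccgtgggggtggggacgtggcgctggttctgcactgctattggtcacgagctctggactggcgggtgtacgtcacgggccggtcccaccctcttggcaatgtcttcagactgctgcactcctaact
Robo4: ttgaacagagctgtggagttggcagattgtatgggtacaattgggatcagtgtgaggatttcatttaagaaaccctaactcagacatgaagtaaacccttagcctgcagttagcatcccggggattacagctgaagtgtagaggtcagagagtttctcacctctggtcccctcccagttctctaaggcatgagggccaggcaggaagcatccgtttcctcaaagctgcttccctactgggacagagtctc
Ephb4: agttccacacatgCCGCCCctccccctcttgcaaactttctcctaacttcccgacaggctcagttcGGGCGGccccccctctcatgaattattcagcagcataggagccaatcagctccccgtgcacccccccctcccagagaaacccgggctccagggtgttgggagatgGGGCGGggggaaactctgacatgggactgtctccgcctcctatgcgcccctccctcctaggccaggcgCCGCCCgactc
The Epha4 window held 1 GC box, the Ephb4 window 4 that did not overlap, and the Robo4 window 0, where 32.7% of 32851 RefSeq promoter windows of this length held at least 1. The letters TATAAA, found on either strand in 12.4% of windows, and CCGGAA, found in 12%, were in none of the 3. G and C made up 66% of the Epha4 window, 64% of the Ephb4 window and 49.6% of the Robo4 window, against a median of 52.4% over all windows. CG pairs numbered 14, 12 and 2, against a median of 6. Of the 37 genes, 32 had an entry in the promoter table.

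Of the 37 genes, 31 were measured in at least 1 class, and stromal and vessel cells held nearly all of their UMIs. The other 6 were Slit1, Robo3, Ntng2, Dcc, Unc5d and Efnb3. Dcc, the classic attractive netrin receptor, had 2 UMIs in all F592A cells and 5 in all WT cells, and Unc5d had 4 and 1. Robo3 had 4 UMIs in each library, Slit1 had 15 and 23, Efnb3 had 50 and 66, and Ntng2 had 57 and 46. The class with the highest level was the same in both libraries for 26 of the 31 measured genes. This and each statement below on where a gene was highest leaves out the cells of mixed markers. The 5 that differed, Unc5a, Efna2, Efna3, Efna4 and Epha1, had at most 7.28 CPM in any class or in the cells of mixed markers in either library. In macrophages 0 members were measured, so none could count as apart there, while 5.09% of the 10175 genes measured in that class did.

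**Figure D1:**
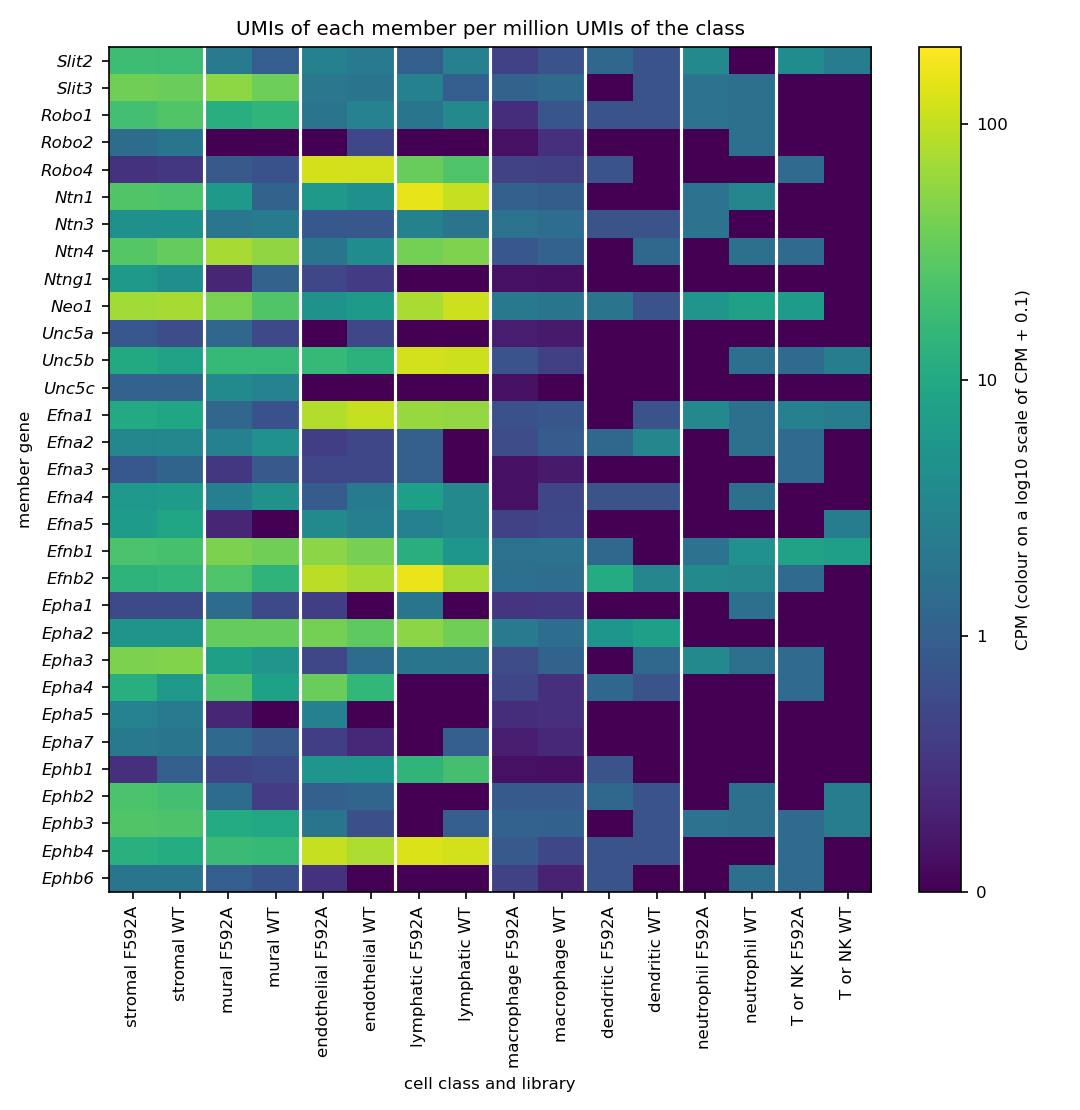
Level of the 31 measured genes (rows) in 8 cell classes (columns, F592A left of WT within each class), as CPM on a log10 colour scale. Slit2, Robo1, Epha3 and Ephb2 are brightest in stromal cells, Robo4 in endothelial cells, and Ntn1, Unc5b and Ephb4 in lymphatic cells, where Epha4 is at 0 in both libraries.

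Among the Slits, Slit2 was a stromal gene at 18.8 CPM in F592A and 18.4 CPM in WT stromal cells, with 17 and 6 UMIs in mural cells. Slit3 had its highest level in mural cells, at 54.8 CPM in F592A (443 UMIs) and 36.7 CPM in WT (251 UMIs). Stromal cells had 38.5 and 34.7 CPM, and in WT the intervals of both classes overlapped. Of the receptors, Robo1 was 20.5 CPM in F592A and 25.4 CPM in WT stromal cells and 12.0 and 14.2 CPM in mural cells. Robo2 was low and nearly all stromal, at 1.38 and 1.84 CPM. Robo4, the Robo of endothelial cells, was 122.6 CPM in F592A and 118.1 CPM in WT endothelial cells and 34.1 and 24.6 CPM in lymphatic cells. In stromal cells Robo4 was only 0.205 and 0.248 CPM. The Slit ligands and Robo4 were thus read mainly in different classes. Robo1 and, at lower counts, Robo2 were read with Slit2 in stromal cells.

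Among the netrins, Ntn1 was highest in lymphatic cells, at 150.9 CPM in F592A (168 UMIs) and 103.5 CPM in WT (118 UMIs), and was 25.0 and 23.5 CPM in stromal cells. Ntn4, a netrin of basement membranes, was highest in mural cells, at 73.8 CPM in F592A and 57.3 CPM in WT. Ntn3 was 4.42 and 4.50 CPM and the netrin-G Ntng1 6.01 and 4.27 CPM in stromal cells. Neo1, a receptor for netrins and for repulsive guidance molecules, was 69.2 CPM in F592A and 74.4 CPM in WT stromal cells and 77.2 and 113.2 CPM in lymphatic cells. In F592A the intervals of those 2 classes overlapped. The repulsive receptor Unc5b stood out in lymphatic cells, at 119.5 CPM in F592A and 112.3 CPM in WT, against 16.4 and 13.3 CPM in blood endothelial cells. Unc5c was highest in mural cells at 3.71 and 2.78 CPM (30 and 19 UMIs).

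Of the ephrins, Efna1 was highest in endothelial cells, at 83.4 CPM in F592A and 101.3 CPM in WT, and was 61.1 and 58.8 CPM in lymphatic cells. Efnb1 was spread over endothelial (54.0 and 41.4 CPM), mural (44.6 and 38.9 CPM) and stromal cells (23.2 and 21.8 CPM). Efna5 had its highest level among the named classes in stromal cells, at 6.39 and 8.95 CPM. Arterial cells, a part of the endothelial class, had more, as given below. The cells of mixed markers had 3.46 and 16.6 CPM of Efna5 (11 and 32 UMIs). Efnb2 was 90.4 CPM in F592A and 71.5 CPM in WT endothelial cells, and 161.7 and 73.7 CPM in lymphatic cells. Its receptor Ephb4 was 101.8 and 78.7 CPM in endothelial cells and 132.9 and 117.6 CPM in lymphatic cells. Epha2 was likewise a vessel gene, with 40.3 and 30.1 CPM in endothelial and 33.0 and 32.9 CPM in mural cells. It was highest in lymphatic cells, at 53.9 and 38.6 CPM (60 and 44 UMIs), with intervals that overlapped the endothelial ones in both libraries. Epha3 (44.7 CPM in F592A and 47.4 CPM in WT), Ephb2 (23.0 and 20.3 CPM) and Ephb3 (25.5 and 23.7 CPM) had their highest level among the named classes in stromal cells. Ephb3 was 29.9 and 34.8 CPM (95 and 67 UMIs) in the cells of mixed markers. Ephb2 was at or under 1.36 CPM in endothelial, mural and lymphatic cells of both libraries.

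Epha4, a receptor that binds both classes of ephrin, was higher in F592A in stromal, endothelial and mural cells, the 3 classes where it was measured. The gene (ENSMUSG00000026235) lies on GRCm38 chromosome 1, 77367185 to 77515088, minus strand. In stromal cells it had 1471 UMIs in F592A and 935 in WT, or 12.1 CPM (interval 11.5 to 12.7) and 5.94 CPM (interval 5.57 to 6.34). The log2 ratio was 1.02 (interval 0.90 to 1.14). In endothelial cells it was 35.3 CPM in F592A (345 UMIs) and 15.2 CPM in WT (112 UMIs), a log2 ratio of 1.21 (interval 0.90 to 1.54). In mural cells it was 25.0 CPM in F592A (202 UMIs) and 7.75 CPM in WT (53 UMIs), a log2 ratio of 1.69 (interval 1.25 to 2.15). The intervals of the levels did not overlap in any of these 3 classes. Lymphatic cells had 0 Epha4 UMIs in 90 F592A and 94 WT cells, where 3 UMIs would have been 2.69 and 2.63 CPM.

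**Figure D2:**
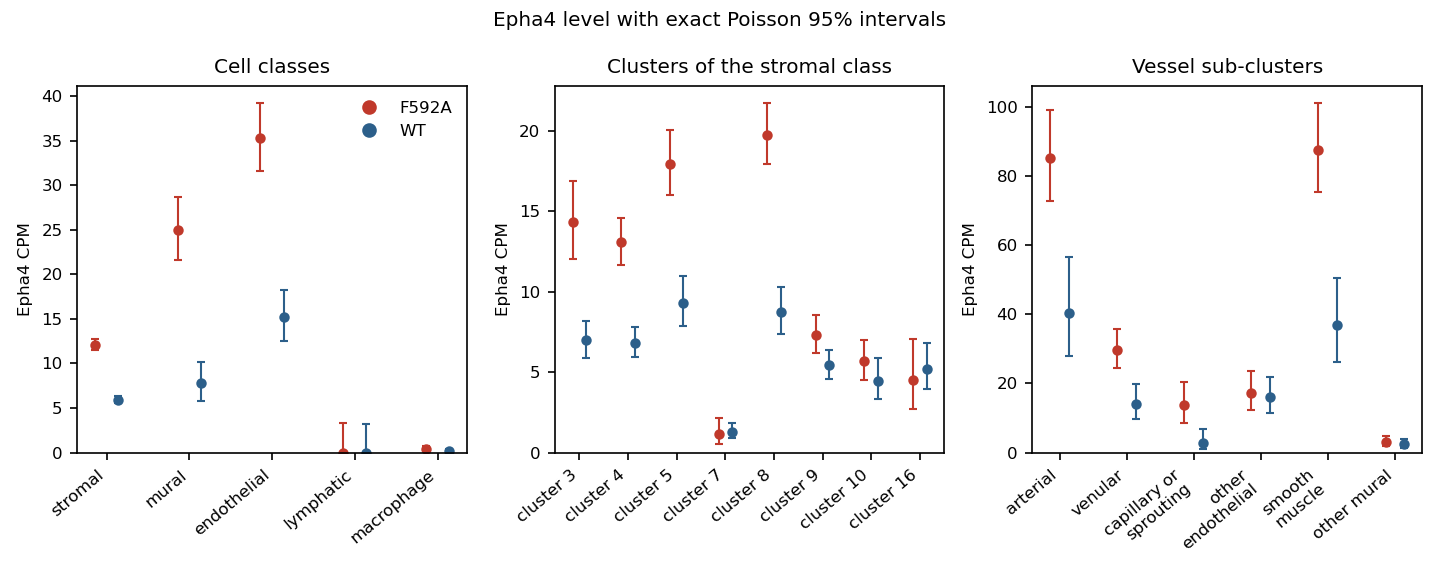
Epha4 level in CPM (vertical axes, from 0) in cell classes, in the clusters of the stromal class and in vessel sub-clusters, with F592A points left of WT points and exact Poisson 95% intervals. Epha4 is higher in F592A in stromal clusters 3, 4, 5 and 8 and in arterial, venular and smooth muscle cells, while stromal clusters 7 and 16 and the other mural cells have overlapping intervals. The capillary or sprouting points rest on 23 UMIs in F592A and 5 in WT.

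Epha4 was also seen in a larger share of the F592A cells. A UMI was seen in 20.9% of F592A and 10.7% of WT stromal cells, in 26.9% and 12.7% of endothelial cells, and in 12.3% and 5.08% of mural cells. With every cell thinned to 2000 UMIs, which kept 4556 F592A and 6434 WT stromal cells, the stromal shares were 2.81% (interval 2.35 to 3.33) and 1.09% (interval 0.849 to 1.37). The thinned shares were 5.67% and 3.14% in endothelial cells, where the intervals overlapped, and 3.60% and 1.18% in mural cells. Free RNA can give a UMI to cells that do not express a gene. Macrophages had Epha4 in 0.461% of F592A and 0.192% of WT cells. The median macrophage held 13132 UMIs in F592A and 10258 in WT, and the median stromal cell 25078 and 22617. The F592A cell with the most Epha4 in each class held 0.612%, 3.19% and 6.93% of the UMIs in stromal, endothelial and mural cells.

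Within the stromal class the Epha4 difference was unequal between clusters. It was 19.8 CPM in F592A and 8.75 CPM in WT (log2 ratio 1.17) in cluster 8, led by Eln and Sfrp4. It was 14.3 and 6.98 CPM (1.04) in cluster 3, led by Gzme and Wnt16. In cluster 4, led by Wfdc18 and Rbp4, it was 13.1 and 6.82 CPM (0.94). Cluster 4 scored highest on the chondrocyte list. Clusters 5, led by Gpha2, Mstn and Chad, and 9, led by Ibsp, Mmp13, Prg4 and Angptl7, were both named tenocyte-like by the marker lists. Epha4 was 17.9 and 9.31 CPM (0.95, interval 0.66 to 1.24) in cluster 5. The log2 ratio was 0.44 in cluster 9, under the limit. It was 0.35 in cluster 10 (led by C3 and Myoc), where the interval ran from -0.17 to 0.88. Cluster 7, led by Slurp1 and Efemp1, had 9 and 31 UMIs and the cycling cluster 16 had 19 and 55. Their log2 ratios were -0.18 and -0.22, with intervals that included 0. Cluster 7 held 5.52% of F592A and 13.8% of WT stromal cells and cluster 8 held 21.8% and 13.4%, so the stromal value also carries this mixture. With clusters weighted equally the stromal log2 ratio was 0.79.

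In vessels Epha4 was 85.2 CPM in F592A and 40.5 CPM in WT arterial cells (log2 ratio 1.07, interval 0.54 to 1.65) and 29.8 and 14.1 CPM in venular cells (1.08, interval 0.51 to 1.70). It was 87.5 and 37.0 CPM in vascular smooth muscle (1.24, interval 0.74 to 1.78). Capillary or sprouting cells had 23 Epha4 UMIs in 14 of 89 F592A cells and 5 UMIs in 4 of 98 WT cells. That is fewer than the 100 UMIs needed to count as measured. Other endothelial cells had 17.2 and 16.1 CPM and other mural cells 3.01 and 2.42 CPM, with intervals that overlapped. The sub-clusters with the most Epha4 were also larger parts of F592A. Arterial cells were 19.5% of F592A and 10.6% of WT endothelial cells, and smooth muscle was 25.6% and 15.4% of mural cells. The part of these shares in the class ratios was not tested. Over the whole class the 8 arterial markers summed to 506 CPM in F592A and 545 CPM in WT endothelial cells. The 7 smooth muscle markers summed to 6031 and 6503 CPM in mural cells. All these markers were read in both libraries. With equal weight for each sub-cluster of at least 50 cells in both libraries, the Epha4 log2 ratio was 1.05 in endothelial and 1.16 in mural cells. Smaller sub-clusters were left out of this value.

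Over the stromal class, 1 of 30 measured members was higher in F592A (Epha4), where 3.46% of 13960 measured genes were, and 1 was lower (Ephb1), where 4.91% were, so 2 were apart beside 8.37% of all genes. The median log2 ratio of the 30 was -0.0003, beside -0.0754 over all measured genes. The other 28 lay between -0.55 (Efna3) and 0.49 (Ntng1). By family, 0 of 4 measured Slit and Robo genes, 0 of 8 netrin genes and 2 of 18 ephrin and Eph genes were apart.

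Ephb1, a receptor for B ephrins on chromosome 9 (101922128 to 102354693, minus strand), had 23 UMIs in 20 F592A stromal cells and 140 UMIs in 95 WT stromal cells. That is 0.189 CPM in F592A and 0.890 CPM in WT, a log2 ratio of -2.24 (interval -2.94 to -1.59). Most of these UMIs were in cluster 3, with 10 in F592A and 86 in WT (1.00 and 4.08 CPM), and in cluster 4, with 12 and 39. The Ephb1 level was higher outside the stromal class, at 14.4 and 21.1 CPM in lymphatic cells (16 and 24 UMIs) and 5.11 and 5.56 CPM in endothelial cells (50 and 41 UMIs). The 8 endothelial markers summed to 10.9 CPM in F592A and 12.4 CPM in WT stromal cells, with none at 0, and their part in the stromal ratio was not tested. Cluster 3 held 7.49% of F592A and 12.4% of WT stromal cells.

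**Figure D3:**
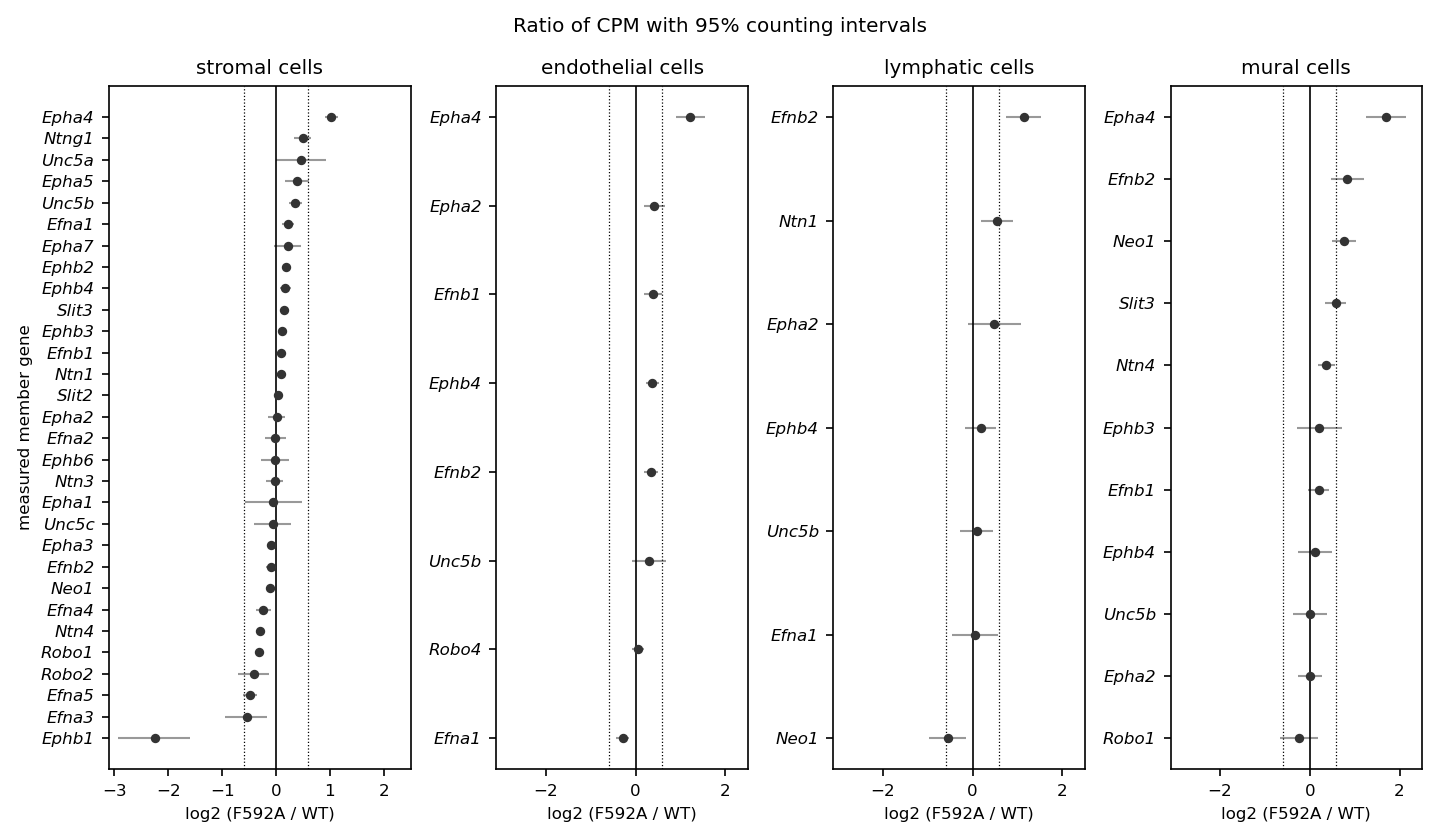
Log2 ratio of CPM, F592A over WT (horizontal axes), of each measured member in 4 classes with 95% counting intervals; dotted lines mark 1.5-fold. Epha4 lies beyond the line in stromal, endothelial and mural cells, Ephb1 on the lower side in stromal cells, Efnb2 in lymphatic and mural cells and Neo1 in mural cells.

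In endothelial cells 1 of 8 measured members, Epha4, was higher in F592A, where 2.43% of 8832 genes were, and 0 were lower, where 8.8% were. The median of the 8 was 0.35, beside -0.09 over all genes. Epha2 (0.42), Efnb1 (0.38), Ephb4 (0.37) and Efnb2 (0.34) lay between 0 and the limit with intervals above 0. Efna1 was on the other side at -0.28 (interval -0.43 to -0.14). Robo4 was at 0.05 (interval -0.07 to 0.18).

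Efnb2 and Ephb4 differed in how they were spread over the vessel sub-clusters. Efnb2 was 273 CPM in F592A and 256 CPM in WT arterial cells, 83.7 and 101 CPM in capillary or sprouting cells and 24.6 and 16.7 CPM in venular cells. Arterial Efnb2 was thus over 10 times the venular level in each library, and the intervals of the 2 genotypes overlapped in all 3 sub-clusters. Ephb4 was at 111 and 76.2 CPM in arterial, 83.7 and 73.3 CPM in capillary or sprouting and 104.5 and 73.0 CPM in venular cells. Unc5b, the Unc5 receptor known from vessels, was 57.8 and 40.5 CPM in arterial cells and 0.259 and 0.880 CPM in venular cells. Efna5 was read in arterial cells at 14.2 and 17.9 CPM (28 and 15 UMIs) and in venular cells at 0.518 and 0.440 CPM. Efnb1 and Epha2 were higher in F592A inside arterial cells, with log2 ratios of 0.92 (138 and 31 UMIs) and 0.73 (109 and 28 UMIs). Over all endothelial and mural sub-clusters, 42 pairs of a member and a sub-cluster were measured. Of these, 9 were higher in F592A and 0 lower. That is 21.4% apart, beside 12.9% of such pairs over all genes in either direction, a share not split by direction. Pairs of the same gene are not independent.

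**Figure D4:**
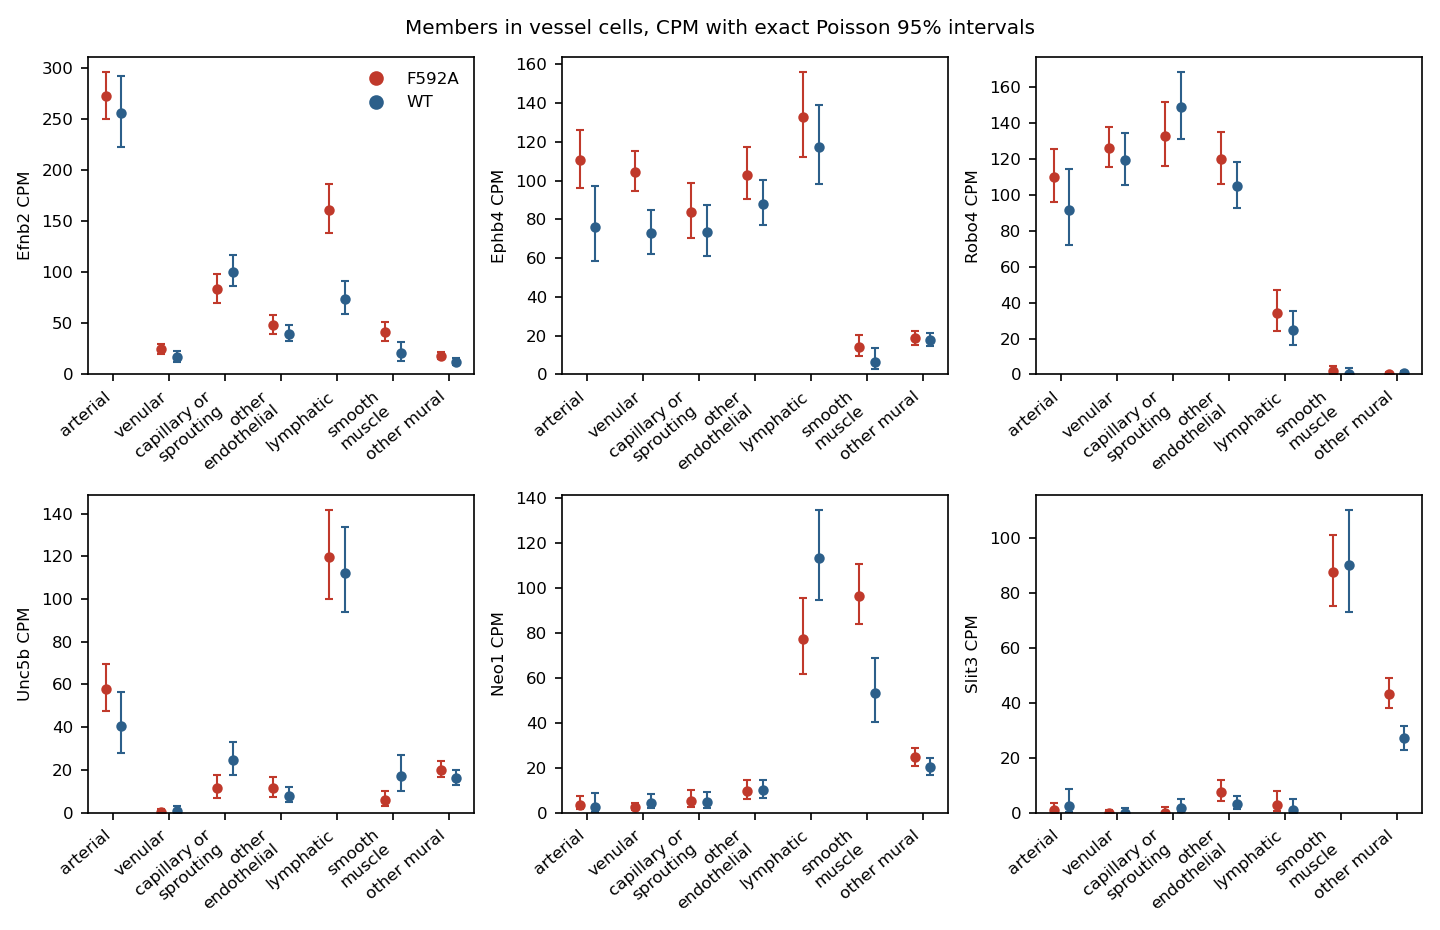
Level in CPM (vertical axes, from 0) of 6 members in vessel sub-clusters and lymphatic cells, F592A points left of WT points, with exact Poisson 95% intervals. Efnb2 peaks in arterial cells in both libraries, while Ephb4 and Robo4 are read in every blood endothelial sub-cluster, and lymphatic Efnb2 is 161.7 CPM in F592A against 73.7 CPM in WT.

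In lymphatic endothelial cells 1 of 7 measured members was higher in F592A, where 4.95% of 3316 genes were, and 0 were lower, where 14.5% were. The higher member was Efnb2, with 180 UMIs in F592A and 84 in WT (161.7 and 73.7 CPM), a log2 ratio of 1.13 (interval 0.75 to 1.52). A UMI of Efnb2 was seen in 60 of 90 F592A cells and in 38 of 94 WT cells, at median depths of 9715 and 7762.5 UMIs. The top F592A cell held 14 of the 180 UMIs. Arterial markers, which Efnb2 accompanies in blood endothelium, summed to 459 CPM in F592A and 367 CPM in WT lymphatic cells, with 3 and 2 of 8 markers at 0. The 7 lymphatic markers summed to 12800 and 13942 CPM. Neo1 was at -0.55 (86 and 129 UMIs), Ntn1 at 0.54 and Unc5b at 0.09. With TMM scaling, which moved all lymphatic ratios by 0.11 on the log2 scale, Ntn1 (0.66) and Epha2 (0.59) also passed the limit.

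In mural cells 3 of 11 measured members were higher in F592A, where 3.99% of 8788 genes were, and 0 were lower, where 7.68% were. The 3 were Epha4, Efnb2 and Neo1, and the median of the 11 was 0.21, beside -0.08 over all genes. Efnb2 was 24.5 CPM in F592A (198 UMIs) and 13.8 CPM in WT (94 UMIs), a log2 ratio of 0.83. Inside smooth muscle it was 41.4 and 20.9 CPM and in other mural cells 18.6 and 12.5 CPM. The other mural cells held 111 Efnb2 UMIs in F592A and 72 in WT. Of these, 26 and 8 were in a cycling sub-cluster of 20 F592A and 38 WT cells that also carried endothelial markers. The top F592A cell there held 10 of the 26. The part of this sub-cluster in the Efnb2 ratio was not tested. Neo1 was 43.3 CPM in F592A (350 UMIs) and 25.5 CPM in WT (174 UMIs), a log2 ratio of 0.77 (interval 0.50 to 1.04). Inside smooth muscle Neo1 was 96.5 and 53.1 CPM (0.86), and in other mural cells 24.6 and 20.4 CPM with overlapping intervals. With doublets kept the mural log2 ratio of Neo1 was 0.48, under the limit.

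Slit3 fell just short of the limit in mural cells, at a log2 ratio of 0.58 (interval 0.35 to 0.81). It was level in smooth muscle, at 87.5 CPM in F592A and 90.1 CPM in WT, and 43.3 and 27.0 CPM (0.68) in other mural cells. Ntn1 was not measured in mural cells by the rule and is named after its values were seen. It had 48 UMIs in 38 F592A cells and 7 UMIs in 7 WT cells, of which 31 and 1 were in smooth muscle. RNA of other cells was also read in mural cells, with the 8 stromal markers at a summed 6576 CPM in F592A and 9164 CPM in WT and the 5 erythroid markers at 561 and 115 CPM. None of these markers was at 0, and their part in the mural ratios was not tested. Without the sub-clusters that carried markers of another class the mural log2 ratio of Neo1 was 0.92.

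Across the 8 stromal clusters, 26 of 30 members differed at least 2-fold between 2 clusters in the same direction in both libraries, where 42.8% of the 13960 measured genes did. Some of these folds rest on few UMIs, as for Epha1, with 3 and 2 UMIs in cluster 5, and Unc5a, with 10 and 4 in cluster 9. For 18 of the 30 the same cluster was highest in both. As the clustering did not use the 37 genes, these levels are a description of clusters made from other genes. The 4 with no pair of clusters at least 2-fold apart in both libraries were Neo1, Efna2, Ephb2 and Ephb4, and of these Ephb4 alone stayed under 2-fold within each library.

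**Figure D5:**
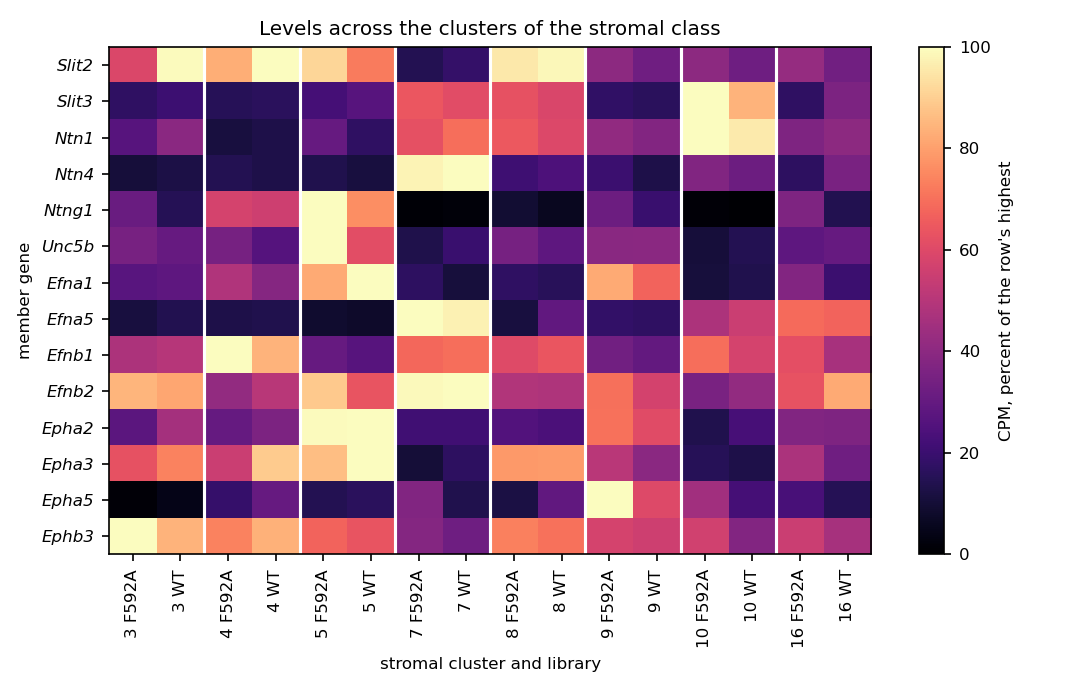
Level of 14 members (rows) in the 8 stromal clusters (columns, F592A left of WT), as percent of each row's highest CPM. Ntn4 and Efna5 are brightest in cluster 7, Slit3 and Ntn1 in cluster 10, and Ntng1, Unc5b and Epha2 in cluster 5, 1 of 2 tenocyte-like clusters, in both libraries.

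The ligands divided between the clusters. Clusters 7 and 10 scored highest on the adventitial fibroblast list. Slit3 was 98.5 CPM in F592A and 83.1 CPM in WT in cluster 10, against 17.6 and 15.8 CPM in cluster 9. Ntn1 had the same top cluster, with 55.5 and 53.2 CPM in cluster 10 and 6.31 and 7.28 CPM in cluster 4. Ntn4 was 106 and 109 CPM in cluster 7 and 11.5 and 13.9 CPM in cluster 3. Efna5 was also highest in cluster 7, at 25.7 and 25.0 CPM, and lowest in cluster 5, with 40 and 33 UMIs. Slit2 was lowest in cluster 7 at 4.21 and 5.31 CPM, and was 27.3 and 28.2 CPM in cluster 8 and 23.7 and 28.6 CPM in cluster 4. Slit2 and Slit3 thus had different top clusters in both libraries.

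Clusters 5 and 9 scored highest on the tenocyte list, and cluster 5 was highest for several receptors. Epha3 was 69.7 CPM in F592A and 80.4 CPM in WT in cluster 5, against 41.1 and 31.8 CPM in cluster 9 and 8.41 and 13.7 CPM in cluster 7. Unc5b was 24.8 and 15.2 CPM, against 2.71 and 3.59 CPM in cluster 10. Epha2 was 11.4 and 11.5 CPM, against 2.42 and 2.43 CPM in cluster 7. Epha7 was 4.27 and 7.14 CPM, against 1.95 and 1.49 CPM in cluster 9 and 0.788 and 0.431 CPM in cluster 8. Ntng1 was 16.2 and 12.4 CPM in cluster 5 and only 0.198 and 0.0875 CPM in cluster 10, where it had 3 and 1 UMIs. Cluster 4 was highest for Efnb1 (38.5 and 32.4 CPM), cluster 3 for Ephb3 (38.0 and 32.0 CPM) and Efna4 (10.6 and 9.50 CPM), and cluster 9 for Epha5 (8.18 and 4.91 CPM).

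Inside single stromal clusters, 153 pairs of a member and a cluster were measured, and 21 of them were at least 1.5-fold apart, 10 higher and 11 lower in F592A. That is 13.7%, beside 7.3% of the 81600 such pairs over all genes. Clusters differ in size and depth, and pairs of 1 gene are not independent. Epha4 made up 4 of the higher pairs, in clusters 3, 4, 5 and 8. In cluster 8 Efna5 was 2.92 CPM in F592A and 7.64 CPM in WT, a log2 ratio of -1.39 (interval -1.85 to -0.94). In cluster 5 Ntn1 was 17.0 and 9.62 CPM (0.82, interval 0.53 to 1.12) and Unc5b 24.8 and 15.2 CPM (0.70), while Epha7 was lower (-0.74). In cluster 3 Slit2 was 16.9 and 28.3 CPM (-0.75), Epha2 was lower (-0.72) and Ntng1 was 5.10 and 2.42 CPM (1.08). Epha3 was lower in cluster 4, at 44.1 and 71.8 CPM (-0.70), and in cluster 7 (-0.71), and Robo2 was lower in cluster 4 (-0.79). In the cycling cluster 16 Slit3 was 17.1 and 35.6 CPM (-1.06).

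Ntn4 and Epha5 were apart in opposite directions in different clusters. Ntn4 was 18.5 CPM in F592A and 38.5 CPM in WT (-1.06) in cluster 16, but 21.6 and 14.2 CPM (0.61, 455 and 362 UMIs) in cluster 9. Epha5 was 8.18 and 4.91 CPM (0.74) in cluster 9 and 1.54 and 2.52 CPM (-0.71) in cluster 4. The last pairs were Ntng1 (0.70) and Efna2 (-0.69), both in cluster 9.

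Other genes of the same pathways, 51 in 3 lists, were counted in the same way. They include adaptors, co-receptors, enzymes, repulsive guidance molecules and FLRT adhesion proteins. In stromal cells 2 of 48 measured were higher in F592A, beside 3.46% of all measured genes, and 0 lower, beside 4.91%. The 2 were Srgap3, a GTPase-activating protein of Robo signalling (18.2 and 11.7 CPM, log2 ratio 0.63), and Dapk1, a death-associated kinase of Unc5 signalling (23.2 and 13.4 CPM, 0.80). With clusters weighted equally 0 of 48 were apart. In macrophages, where 1.97% of measured genes were higher and 3.13% lower, 0 of 42 were higher and 2 were lower. Both were FLRT adhesion proteins that bind Unc5 receptors, Flrt3 at 51.8 and 77.9 CPM (-0.59) and Flrt2 at 2.70 and 4.25 CPM (-0.66). In endothelial cells 1 of 39 was higher, Mcf2l at 0.68, beside 2.43% of all measured genes. In mural cells 1 of 40 was higher, the Eph receptor adaptor Anks1 at 0.69, beside 3.99%.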

How the data were processed

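The data are droplet (10x Genomics) single-cell RNA counts of 2 libraries. The deposited matrices hold whole UMI counts per gene and barcode, and the lowest barcode had 500 UMIs, so the authors had chosen barcodes before deposit. Versions of the counting software are named: Cell Ranger 6.0.1 per the file headers, and Cell Ranger 2.1.1 (with Seurat and mm10) per the submitters' processing notes. The sources used here do not settle which made the counts. Per the labels' protocols, cells were freed with collagenase and dispase and passed through a filter.

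The matrices held 10677 F592A and 14868 WT barcodes with 181472230 and 222874195 UMIs, and 96 cell barcodes occurred in both. Barcodes were kept with at least 500 genes, 1000 UMIs and at most 15% mitochondrial UMIs (8664 and 11599). Scrublet doublets (215 and 345) were left out. Cells were clustered with scanpy 1.11.5 from 2000 variable genes without the 37 members, 30 components, 15 neighbours and Leiden resolution 0.8, giving 19 clusters. Clusters were named from 22 marker lists, and endothelial and mural cells were clustered again for the sub-clusters. A cluster whose leading genes came from several lists stayed unnamed. Doublets and free RNA beyond this were not removed.

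For each class the UMIs of a library were added up and scaled to CPM, with exact Poisson intervals. Shares carry exact binomial (Clopper-Pearson) intervals and log2 ratios exact conditional binomial intervals. No test was run, since each genotype is 1 library. The ratio step was run on simulated Poisson counts with known folds, the counting model that the intervals assume. These counts hold no variation between mice, libraries or cells, so the run cannot speak to that spread. Genes between genotypes were named when at least 1.5-fold apart with at least 100 UMIs. Within the stromal class those at least 2-fold apart between clusters in both libraries were named. Alternatives changed scaling (TMM from edgeR 4.0.16, median of ratios), cell weights, filters, resolution, the naming of cells, the fold and the minimum. The members, the lists and the tests were chosen with earlier results of these data known. Gene coordinates are from GENCODE M21 on GRCm38, and promoters from RefSeq.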

Additional observations from a re-analysis of the deposited data

How the results depend on the processing

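Over 56 pairs of member and class, 520 alternative log2 ratios were computed. Of these, 470 stayed inside the counting interval of the reported value and 50 fell outside it. For pairs at least 1.5-fold apart as reported, 0 alternatives changed sign, and sign changes of smaller ratios were not counted. Epha4 stayed past 1.5-fold under every alternative run, from 0.79 to 1.10 in stromal, 1.05 to 1.31 in endothelial and 1.16 to 1.88 in mural cells. Ephb1 in stromal cells ranged from -2.84 to -2.02, mural Efnb2 from 0.59 to 0.92, lymphatic Efnb2 from 0.86 to 1.37, while mural Neo1 passed in 7 of 9 alternatives (0.48 to 0.92). The stromal count of 2 became 5 without cluster 4, where Ntng1 (0.78), Epha5 (0.62) and Efna3 (-0.67) joined, and 5 with no minimum of UMIs. The macrophage count of 0 became 3 with doublets kept, 3 with each cell placed by its own markers, 6 with a minimum of 20 UMIs and 16 with none. The endothelial count of 1 became 2 with each cell placed by its own markers, 6 with a minimum of 20 and 16 with none. The mural count of 3 became 5 with the mean over cells, 1 at a fold of 2, 7 with a minimum of 20 and 19 with none. The lymphatic count of 1 became 3 with a mitochondrial limit of 10%, 2 with each cell placed by its own markers, 3 with TMM, 3 with the median of ratios, 4 with the mean over cells and 15 with no minimum. The stromal count of 2 partner genes became 0 with clusters weighted equally. Leaving out cluster 4 and the other settings by cluster, the partner genes' settings and all lymphatic settings were chosen after seeing the data. The count of 26 genes with the same top class ranged from 22 to 28. TMM moved all stromal ratios by 0.08 on the log2 scale. The cause of these moves was not tested beyond what each setting changes by construction. Lower minimums admit genes whose ratios rest on few UMIs. No paired analysis was possible because each genotype has 1 library. Depth limits the small classes most, where 3 UMIs come to 2.69 CPM in F592A and 2.63 CPM in WT lymphatic cells.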

Other observations

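Epha5, an EphA receptor best known from the nervous system, was read in few cells of the named classes other than stromal cells. The cells of mixed markers held 60 Epha5 UMIs in F592A and 18 in WT (18.9 and 9.36 CPM). Cells gated on at least 3 Schwann cell markers and 5 UMIs held 47 Epha5 UMIs in 3 of 7 F592A cells, of which 42 were in 1 cell, and 11 UMIs in 6 of 16 WT cells. Endothelial cells held 27 UMIs in 4 of 642 F592A cells, 18 of them in 1 cell, and 0 in 584 WT cells. Both F592A counts rest mainly on 1 cell, while the top WT Schwann-gated cell held 4 of the 11 UMIs. With so few cells and UMIs, the Schwann-gated and endothelial counts give no level for these cells.

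Ntng2, a netrin-G, had its highest level in neutrophils of both libraries, at 8.60 CPM in F592A (5 UMIs) and 6.18 CPM in WT (4 UMIs), too few UMIs for a ratio. Efnb2 was read in dendritic cells with 18 UMIs in F592A and 5 UMIs in WT, and Epha2 with 9 and 12.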
